A study of Mus musculus with 4 samples.

Results

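The genes described here are 10 genes of lipoprotein formation, 9 apolipoproteins and the microsomal triglyceride transfer protein gene Mttp, chosen by name out of 48526 gene identifiers counted in mouse liver tumours. They are Apoa1, Apoa2, Apoa5, Apob, Apoc1, Apoc3, Apoe, Apoh, Apom and Mttp. Tumours of C57BL/6 mice given Akkermansia muciniphila (AKK), a mucin-degrading gut bacterium, were compared with tumours of mice given phosphate-buffered saline (PBS), with 2 RNA sequencing libraries in each group. The AKK mice received 5000000000 colony-forming units by mouth for 2 weeks before a methionine- and choline-deficient (MCD) diet, which produces fatty liver, and during the 2 weeks of that diet. All mice of both groups had the diet and then an implant in the liver of RIL-175, a hepatoma line of mouse that carried luciferase. After surgery the bacterium was withheld for 6 days and then given again until tumours were collected. The labels give neither age nor sex, call the tissue tumour, and call the replicates biological without naming the mice they came from. P-values therefore measure the spread between these libraries, which may be technical. The deposited file names follow different patterns in the 2 groups, so any cohort that those names stand for cannot be told apart from the feeding.

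Lipoproteins carry triglyceride and cholesterol through the blood, and apolipoproteins are their structural proteins, enzyme cofactors and receptor ligands. The liver is a main source. In hepatocytes and enterocytes, Mttp, the lipid-transferring subunit of its complex, loads lipid onto apolipoprotein B while the chain is being made. The phosphatidylcholine that coats the secreted particle needs choline, which the MCD diet withholds. Apoa1 and Apoa2 encode the main proteins of high-density lipoprotein (HDL). Apoe is also made by macrophages.

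The 4 libraries held 48912489 to 59027227 own-strand reads on genes, and log2 levels of 17479 genes correlated with r = 0.974 within AKK, 0.973 within PBS and 0.925 to 0.964 between groups. Of the marker lists, the 22 hepatocyte genes summed to 1036 and 488 CPM (read counts scaled by library size) in AKK 1 and AKK 2, against 107 and 205 CPM in PBS 1 and PBS 2. All 22 lay higher in both AKK libraries, where 26.7% of all 17479 genes tested did. Their median was 15.6 and 2.95 CPM in AKK 1 and AKK 2, against 0.0562 and 0.158 CPM in PBS 1 and PBS 2. In PBS 1, 5 of them had 0 reads (Fga, Pck1, Cyp3a11, G6pc and Hpd), and in both PBS libraries most of the sum was Rbp4, at 98.2 and 186 CPM, against 370 and 244 CPM in AKK. Tissue labelled tumour thus held most hepatocyte markers near 0 in PBS. The 8 Kupffer cell genes summed to 24.3 and 5.15 CPM in AKK, against 6.47 and 2.63 CPM in PBS, so these sums overlapped. Of the 8, 6 lay higher in both AKK libraries, where 26.7% of all genes did, and Cd5l, Clec4f, Timd4 and Marco had 0 reads in PBS 2. Vsig4, Cd5l, Clec4f and Timd4 were under the low-count filter's cutoff of 0.185 CPM in both PBS libraries. Like many of the hepatocyte genes, they could enter the test only by being higher in AKK. The other 2 overlapped. Cd163 read 0.902 and 0.171 CPM in AKK, against 3.88 and 0.694 CPM in PBS. Folr2 read 0.690 and 0.548 CPM in AKK, against 1.35 and 0.526 CPM in PBS. The 10 macrophage genes summed to 682 and 682 CPM in AKK, against 968 and 767 CPM in PBS. Of the 10, 8 lay lower in both AKK libraries, where 24.7% of all genes did, and 1 lay higher. The 9 skeletal muscle genes summed to 3.06 and 3.01 CPM in AKK, against 269 and 9.59 CPM in PBS, so PBS 1 stood apart. The 5 oncofetal genes summed to 10.5 and 12.2 CPM in AKK, against 74.0 and 21.9 CPM in PBS. Sums overlapped between the groups for enterocyte genes (552 and 827 CPM in AKK, against 486 and 1048 CPM in PBS), cholangiocyte genes (1958 and 1375 against 1040 and 2288 CPM) and adipocyte genes (8.30 and 6.27 against 8.38 and 5.11 CPM). The lipid-associated macrophage list summed to 4627 and 5854 CPM in AKK, against 3329 and 3425 CPM in PBS, most of it Spp1. Of its 8 genes, 2 lay higher in both AKK libraries (Spp1 and Cd9), 2 lower (Fabp5 and Gpnmb) and 4 overlapped. The part of any of these cell types in the values below was not tested. In such bulk samples, fewer cells of a type and less RNA per cell cannot be told apart.

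Of the 10 genes, 7 had each AKK library above each PBS library (Apoa1, Apoa2, Apoa5, Apoc1, Apoc3, Apoh and Apom), and 3 overlapped (Apob, Apoe and Mttp). Over all 17479 genes tested, 26.7% lay higher in both AKK libraries and 24.7% lower in both. The edgeR quasi-likelihood test called 0 of the 10 genes at an adjusted p of 0.05, where it called 0.00572% of all genes, a lone gene, the fibrinogen chain Fgb. At an unadjusted p under 0.05 it had 6 of the 10 as higher in AKK, where 6.7% of all genes were, and 0 as lower, where 8.62% were, or 15.3% in either direction. DESeq2 called the same 6 genes as higher (Apoa1, Apoa2, Apoa5, Apoc1, Apoc3 and Apoh), where it called 2.04% of all genes as higher, 2.98% as lower and 5.02% in either direction. Limma-voom called 0 of the 10 and 0% of all genes. All 10 genes passed the filter on low counts, but Apoa5, Apoc1, Apoc3, Apoh and Apom were under its cutoff of 0.185 CPM in both PBS libraries. These 5 could enter the test only by being higher in AKK, so the counts above describe the genes and do not support a change. Without AKK 1 or without AKK 2 edgeR called 0 of the 10, and without PBS 1 or without PBS 2 it called those same 6.

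**Figure D1:**
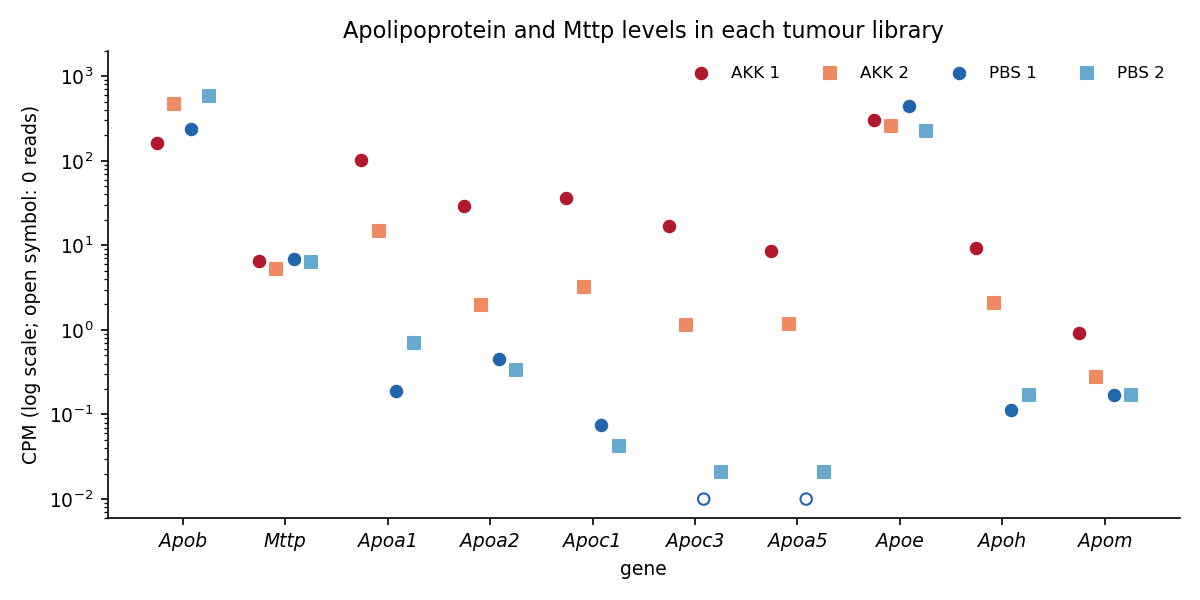
Level of each gene in CPM, on a log scale, in AKK 1, AKK 2, PBS 1 and PBS 2, with 1 point per library and open symbols for 0 reads. Apob, Mttp and Apoe overlap between the groups, while Apoa1, Apoa2, Apoc1, Apoc3, Apoa5 and Apoh stand apart in AKK 1 and AKK 2, with AKK 1 highest.

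The windows around 4 gene starts are shown because 2 belong to genes that lay apart between the groups (Apoa1 and Apoh) and 2 to genes that did not (Apob and Mttp). Each runs from 250 bases before to 50 bases after a RefSeq gene start, in the build GRCm38.p6, on the gene's strand. Of the 10 genes, 8 had such an entry. Those 4 were taken among the 5 genes with 1 entry each. Capitals mark motif letters found on either strand: the TATA box core TATAAA, the GC box core GGGCGG, the HNF1 recognition core GTTAAT, and the HNF4-type cores CAAAGGTC and CAAAGTCC. No source used here names the genome build of the deposited counts, and the windows were matched by gene symbol.
Apob promoter, chr12:7977427-7977726, plus strand: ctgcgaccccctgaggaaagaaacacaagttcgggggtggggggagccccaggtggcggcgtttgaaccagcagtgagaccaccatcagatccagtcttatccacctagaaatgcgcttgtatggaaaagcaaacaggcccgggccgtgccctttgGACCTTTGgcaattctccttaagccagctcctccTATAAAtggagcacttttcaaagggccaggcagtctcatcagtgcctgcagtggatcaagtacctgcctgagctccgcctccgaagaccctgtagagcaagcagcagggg
Mttp promoter, chr3:138143369-138143668, minus strand: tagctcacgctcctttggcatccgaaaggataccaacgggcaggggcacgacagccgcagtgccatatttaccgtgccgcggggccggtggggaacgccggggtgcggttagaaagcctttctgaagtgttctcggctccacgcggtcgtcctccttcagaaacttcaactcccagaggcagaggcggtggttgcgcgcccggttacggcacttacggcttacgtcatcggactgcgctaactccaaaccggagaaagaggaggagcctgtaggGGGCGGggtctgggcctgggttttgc
Apoa1 promoter, chr9:46228380-46228679, plus strand: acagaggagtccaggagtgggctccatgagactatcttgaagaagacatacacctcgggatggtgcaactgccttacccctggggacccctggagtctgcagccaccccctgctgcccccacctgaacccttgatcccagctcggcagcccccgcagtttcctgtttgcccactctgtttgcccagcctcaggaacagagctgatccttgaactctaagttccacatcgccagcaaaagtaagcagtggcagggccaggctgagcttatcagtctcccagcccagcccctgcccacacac
Apoh promoter, chr11:108395047-108395346, plus strand: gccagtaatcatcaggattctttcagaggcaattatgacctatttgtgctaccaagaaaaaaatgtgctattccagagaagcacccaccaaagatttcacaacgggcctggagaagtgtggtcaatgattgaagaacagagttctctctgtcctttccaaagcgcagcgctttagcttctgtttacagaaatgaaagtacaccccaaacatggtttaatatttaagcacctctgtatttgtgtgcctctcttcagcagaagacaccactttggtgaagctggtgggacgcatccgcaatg
The Apob window held TATAAA at offset -60 from the gene start and, at offset -94, GACCTTTG, which is CAAAGGTC read on the other strand. The Mttp window held GGGCGG at offset 24. None of the 5 cores was found in the Apoa1 or Apoh window. Among windows not shown, TATAAA was found for Apoa2 and Apoa5, which lay apart, and for Apoe, which did not. An Apoe window also held GTTAAT and CAAAGGTC, both read on the other strand. Among 32851 windows of the same length, 13.6% held the TATA core, 35.7% the GC core, 7.10% the HNF1 core, 1.17% CAAAGGTC and 1.42% CAAAGTCC. A match is a run of letters and not evidence of binding, and the lack of a match is not evidence of its absence.

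Apob and Mttp, the gene pair at the core of particle assembly, had reads in every library, with Mttp at a far lower level than Apob. Apob, the structural protein of very-low-density lipoprotein and chylomicrons, read 164 and 468 CPM in AKK 1 and AKK 2, against 241 and 584 CPM in PBS 1 and PBS 2. The libraries of a group differed more than the groups did. AKK 1 held 0.351 times the level of AKK 2 and PBS 1 held 0.412 times the level of PBS 2. The means were 316 ± 215 CPM in AKK and 412 ± 242 CPM in PBS (SD, n = 2 each). The enterocyte marker Cdh17 likewise had more in each replicate 2 library, at 515 and 778 CPM in AKK, against 450.2 and 926 CPM in PBS, as did Vil1 at 8.23 and 34.3 CPM in AKK, against 8.45 and 91.2 CPM in PBS. The same held for Alpi, at 0.955 and 1.23 CPM in AKK, against 0.450 and 2.57 CPM in PBS. It also held for Lct, at 0.495 and 0.548 CPM in AKK, against 0.469 and 0.673 CPM in PBS. Anpep of that list did not follow, at 26.5 and 12.7 CPM in AKK, against 26.1 and 27.8 CPM in PBS. Nor did Fabp2, at 0.690 and 0.291 CPM in AKK, against 0.169 and 0.189 CPM in PBS. The part of these genes' cells in the Apob value was not tested. The log2 fold change of Apob was -0.38 (SE 0.60, edgeR adjusted p = 0.778), and its direction turned without AKK 1 (0.18) and without PBS 2 (0.37). Mttp read 6.53 and 5.28 CPM in AKK, against 6.82 and 6.31 CPM in PBS, with the smallest ratio of highest to lowest library among the 10 genes. Its log2 fold change was -0.15 (SE 0.32, edgeR adjusted p = 0.837). Reads on the strand opposite to Mttp were 23.6 and 24.0% of its own-strand reads in AKK, against 19.5 and 20.7% in PBS. Both genes thus overlapped between the groups. The log2 fold changes of the hepatocyte list had their median at 6.17, against 0.02 over all genes tested. That list's median levels in PBS, 0.0562 and 0.158 CPM, lie under the filter's cutoff of 0.185 CPM. Many of its genes could thus enter only by being higher in AKK, so the 6.17 describes them and does not support a change.

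Apoe, a ligand of lipoprotein receptors that hepatocytes and macrophages secrete, read 303 and 255 CPM in AKK 1 and AKK 2, against 444 and 226 CPM in PBS 1 and PBS 2. The AKK values lay between the PBS values. PBS 1 held 1.97 times the level of PBS 2, and the log2 fold change was -0.27 (SE 0.35, edgeR adjusted p = 0.733), turning to 0.30 without PBS 1. The macrophage list stood at 968 CPM in PBS 1, its highest sum, and at 767 CPM in PBS 2, where Apoe was lowest. Its sums in AKK 1 and AKK 2 were 682 and 682 CPM. The part of that list's cells in the Apoe value was not tested.

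Apoa1, the main structural protein of HDL, read 103 and 15.0 CPM in AKK 1 and AKK 2, against 0.187 and 0.694 CPM in PBS 1 and PBS 2. These were 5799 and 873 reads in AKK, against 10 and 33 reads in PBS. Both AKK libraries lay far above both PBS libraries, and AKK 1 was 6.86 times AKK 2. The log2 fold change was 7.07 (SE 1.19, edgeR adjusted p = 0.182, DESeq2 adjusted p = 6.77e-05), and 5.08 without AKK 1. Apoa2, the next most abundant HDL protein, read 29.1 and 1.97 CPM in AKK, against 0.450 and 0.336 CPM in PBS. AKK 1 was 14.8 times AKK 2, so most of the mean difference lay in AKK 1. Its log2 fold change was 5.29 (SE 1.30, edgeR adjusted p = 0.211, DESeq2 adjusted p = 0.0169), and 2.30 without AKK 1.

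Apoc3, Apoa5 and Apoc1 were close to absent in PBS tumours. Apoc3, an inhibitor of triglyceride clearance, had 950 and 66 reads in AKK 1 and AKK 2, against 0 and 1 reads in PBS 1 and PBS 2. Its level summed over the libraries was 892 times higher in AKK, with a 95% counting interval of 160 to 35273 that reflects the lone PBS read. Apoa5, which promotes hydrolysis by lipoprotein lipase, had 486 and 68 reads in AKK, against 0 and 1 reads in PBS, a ratio of 486 (95% counting interval 87.0 to 19249). For neither gene did a PBS library reach 3 reads, the number that a count of 0 allows, which is worth 0.0562 CPM in PBS 1 and 0.0631 CPM in PBS 2. Apoc1, which slows receptor uptake of lipoproteins, had 2072 and 188 reads in AKK, against 4 and 2 reads in PBS. This was 36.7 and 3.22 CPM in AKK, against 0.0750 and 0.0421 CPM in PBS, with a log2 fold change of 8.34 (SE 1.47, edgeR adjusted p = 0.182, DESeq2 adjusted p = 2.42e-05). Adjusted p-values for Apoc3 and Apoa5 were 0.182 and 0.182 in edgeR and 0.00255 and 1.96e-05 in DESeq2. Without AKK 1 the fitted log2 fold changes of Apoc1, Apoc3 and Apoa5 were 5.70, 6.51 and 6.56, and edgeR called none of them. All such intervals cover counting error only.

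Apoh, a phospholipid-binding plasma glycoprotein, read 9.40 and 2.07 CPM in AKK 1 and AKK 2, against 0.112 and 0.168 CPM in PBS 1 and PBS 2. Its log2 fold change was 5.34 (SE 0.92, edgeR adjusted p = 0.182, DESeq2 adjusted p = 5.66e-08), and 3.86 without AKK 1. On the opposite strand its locus had 74 and 99 reads in AKK, against 83 and 87 reads in PBS, which overlapped between the groups. Apom, the HDL carrier of a bioactive sphingolipid, was the weakest of the 7 genes. It read 0.920 and 0.274 CPM in AKK, against 0.169 and 0.168 CPM in PBS, or 52 and 16 reads against 9 and 8 reads. The log2 fold change was 1.81 (SE 0.76, edgeR adjusted p = 0.336, DESeq2 adjusted p = 0.434), and 0.68 without AKK 1. Its opposite strand had 11 and 7 reads in AKK, against 9 and 6 reads in PBS. With unstranded counts its log2 fold change was 1.26.

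**Figure D2:**
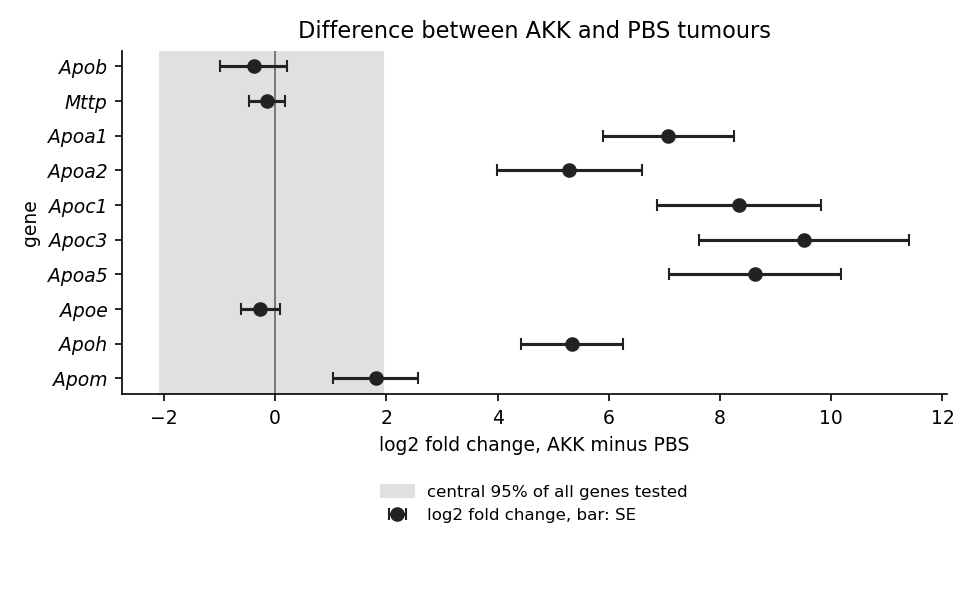
Log2 fold change of each gene, AKK minus PBS, with bars of 1 SE, over a grey band that holds the central 95% of all 17479 genes tested (-2.08 to 1.94). Apob, Mttp, Apoe and Apom lie within the band, and the other 6 genes lie to its right.

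Per length of exon (union of exons in GENCODE M21, by gene identifier), the make-up of these transcripts differed between libraries. Apoe ranked highest in all 4 libraries, at 142 and 119 CPM per kb in AKK 1 and AKK 2, against 208 and 106 CPM per kb in PBS 1 and PBS 2. It made up 38.5 and 67.4% of the summed level of the 10 genes in AKK, against 91.3 and 70.4% in PBS. Apob followed in both PBS libraries and in AKK 2, at 11.8 and 33.6 CPM per kb in AKK, against 17.3 and 41.9 CPM per kb in PBS. In AKK 1 it ranked below Apoa1 (83.0 CPM per kb), Apoa2 (54.1), Apoc1 (49.3) and Apoc3 (16.6). Mttp ranked next in PBS at 1.10 and 1.02 CPM per kb, and ninth and eighth in AKK 1 and AKK 2 at 1.05 and 0.850 CPM per kb. The order from Apoa1 down thus differed between the libraries, while the place of Apoe did not. No source used here names the annotation behind the counts, and exon lengths may differ from those counted.

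**Figure D3:**
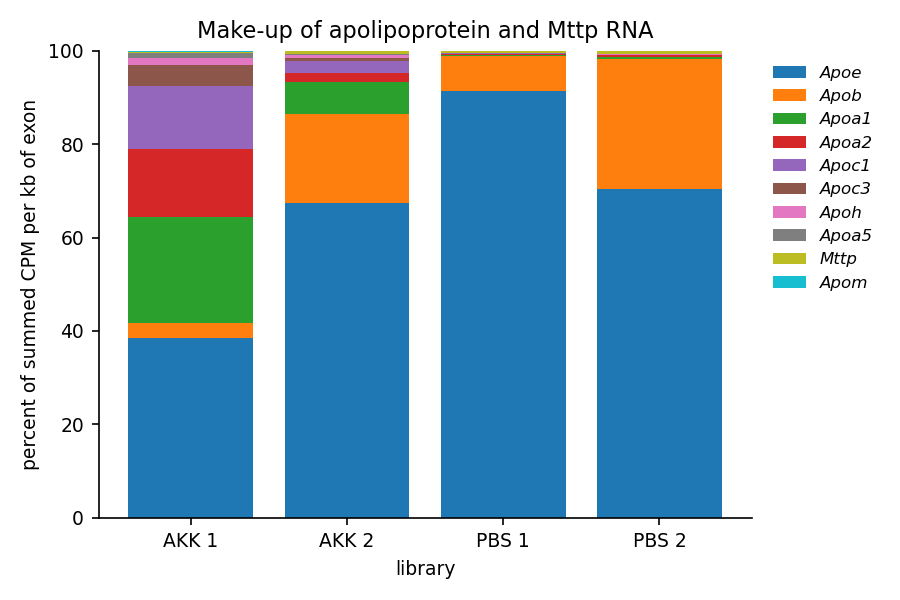
Share of each gene in the summed CPM per kb of exon of the 10 genes, with 1 bar per library, AKK 1 and AKK 2 before PBS 1 and PBS 2. Apoe takes 38.5 and 67.4% in AKK, against 91.3 and 70.4% in PBS, and Apoa1, Apoa2, Apoc1 and Apoc3 are visible in the AKK bars.

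Proportions were also taken against albumin (Alb), the main plasma protein of hepatocytes. There were 65.7 Apoa1 reads per 100 Alb reads in AKK 1 (95% counting interval 63.6 to 68.0) and 58.9 in AKK 2 (54.2 to 64.1), against 62.5 in PBS 1 (25.4 to 146) and 70.2 in PBS 2 (43.6 to 112). The PBS intervals are wide and hold both AKK values. The Alb level behind these values was 156 and 25.4 CPM in AKK, against 0.2999 and 0.988 CPM in PBS. Apoa2 had 18.6 and 7.77 reads per 100 Alb reads in AKK, against 150 and 34.0 in PBS. Apob had 105 and 1846 reads per 100 Alb reads in AKK, against 80256 and 59053 in PBS. Mttp had 4.18 and 20.8 in AKK, against 2275 and 638 in PBS, and Apom 0.590 and 1.08 in AKK, against 56.3 and 17.0 in PBS. Against the median of the hepatocyte list, with log2(CPM + 0.5), Apob, Apoe, Mttp and Apom had lower ratios in AKK, with differences of -4.04, -3.80, -3.76 and -2.96 log2 units. The PBS medians of the list lie under the added 0.5 CPM. With 0.05 CPM added these were -5.95, -5.70, -5.67 and -4.15. Apoa1 had a higher ratio to the list in AKK, with a difference of 1.85 (1.03 with 0.05 CPM added), and -0.40 with Alb in place of the list, so its sign depended on the denominator. The differences from the list were 0.79 for Apoc1, -0.23 for Apoc3, -0.35 for Apoa2, -0.63 for Apoh and -0.68 for Apoa5.

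Within the AKK group the genes did not share 1 ratio between the libraries. AKK 1 over AKK 2 was 14.9 for Apoc3 (95% counting interval 11.6 to 19.4), 14.8 for Apoa2 (12.2 to 18.0) and 11.4 for Apoc1 (9.80 to 13.3). It was 7.38 for Apoa5, 6.86 for Apoa1, 4.53 for Apoh (3.72 to 5.57) and 3.36 for Apom (1.89 to 6.30). The 7 genes had a median of 7.38, and the 22 hepatocyte genes had a median of 4.77 with a range of 1.21 to 9.79. Apoc3, Apoa2 and Apoc1 thus lay above the highest hepatocyte value, although the interval of that highest gene, Hpd, ran from 6.23 to 16.2 and overlapped all 3. Alb was at 6.15 (5.82 to 6.51) and Fgb at 1.48 (1.42 to 1.56).

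**Figure D4:**
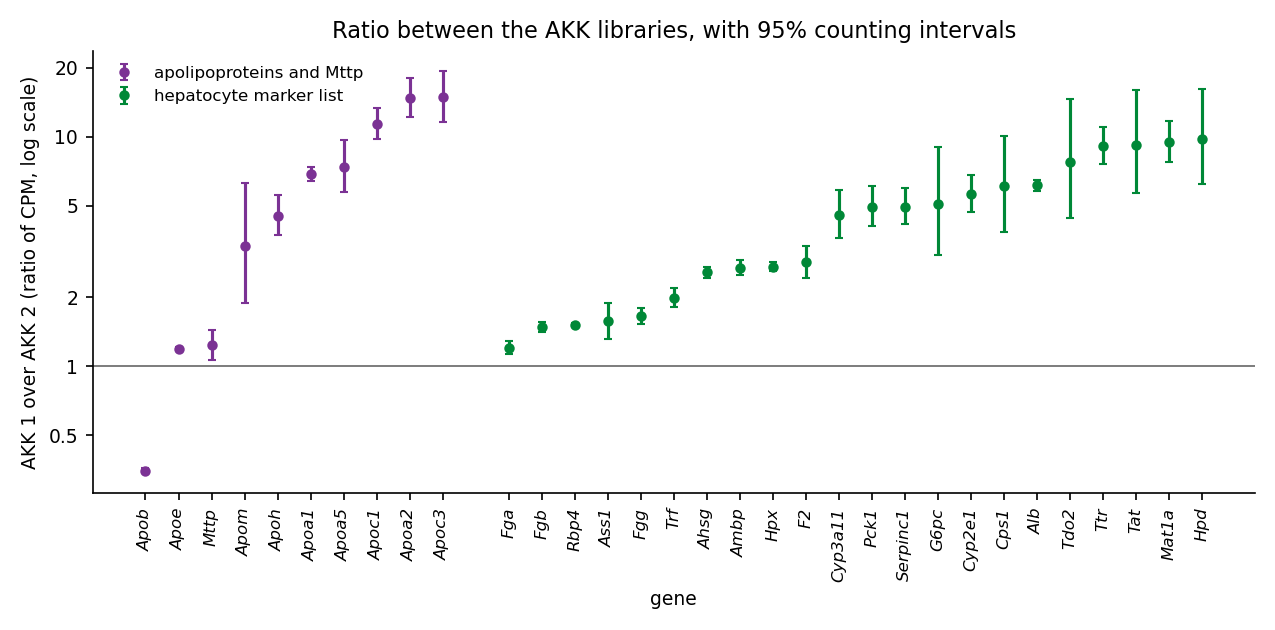
Ratio of the level in AKK 1 to that in AKK 2, on a log scale, with 95% counting intervals, for the 10 genes on the left and the 22 hepatocyte markers on the right, each sorted. Apob lies below 1 at 0.351, Apoe and Mttp lie near 1, and Apoc3 and Apoa2 lie highest at 14.9 and 14.8.

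Genes that stand beside each other in the genome did not all follow the same pattern. In the RefSeq annotation of GRCm38.p6, Apoa1, Apoc3, Apoa4 and Apoa5 follow each other on chromosome 9 with no other protein-coding gene between them. All 4 lay higher in both AKK libraries, where 26.7% of all genes did. Apoc3, Apoa4 and Apoa5 were under the filter's cutoff in both PBS libraries, so they could enter only by being higher in AKK. On chromosome 7, Apoc2, Apoc4, Apoc1 and Apoe likewise follow each other. Apoc4, named after its values were seen, had 265 and 17 reads in AKK 1 and AKK 2, against 0 and 0 reads in PBS, at least 82.5-fold higher against a floor of 3 reads over the group, with an exact 95% lower limit of 66.7. Most of its AKK reads, and so most of that fold, came from AKK 1. Apoc2, the cofactor of lipoprotein lipase and also named after its values were seen, had 10 and 6 reads in AKK, against 3 and 0 in PBS, and was under the filter. Apoe at the end of that run overlapped between the groups while its neighbour Apoc1 did not.

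The genes with the most similar course over the 4 libraries were taken by the root mean square difference of centred log2(CPM + 0.5). They were picked by the same library values, so their likeness to a gene between the groups follows from that choice. The added 0.5 CPM narrows differences between libraries at low levels. The nearest gene to Apob was Hnf4a, a nuclear receptor of hepatocytes and intestinal epithelium known to act on apolipoprotein genes, at a difference of 0.11. Hnf4a read 48.7 and 119 CPM in AKK 1 and AKK 2, against 74.9 and 168 CPM in PBS 1 and PBS 2 (log2 fold change -0.54, edgeR adjusted p = 0.638). It thus had more reads in the replicate 2 library of both groups, as Apob did. Next to Apob came Ugt1a7c (0.11) and Cadm1 (0.12). For Apoc3 the nearest was Fabp1 (0.20), a fatty acid-binding protein of liver and intestine. Slc27a2 (0.10) was nearest to Apoa5, Hsd17b13 (0.14) to Apoh, Mup20 (0.23) to Apoc1 and Lgals7 (0.23) to Apoa2. Mup20 belongs to a family of near-identical genes, so its count is uncertain. The values nearest to Apoe (Prkcq), Apom (Gm11407) and Mttp (Btg1) were at 0.03, 0.01 and 0.01. With 4 libraries these are descriptions of likeness only.

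Other apolipoproteins fell into a group that lay high in AKK and a group that overlapped. Of 16 listed genes 14 passed the filter, and edgeR called 0 of them. At an unadjusted p under 0.05, 7 were higher and 1 lower, where 6.7% and 8.62% of all genes were. The 7 had log2 fold changes of at least 5.07, and the next lay at 0.43, so the median of 2.75 falls in a gap. Of those 7, all but Saa1 were under the filter's cutoff in both PBS libraries and so could enter only by being higher in AKK. With the genes at 0 reads in PBS set to their floor the median was likewise 2.75, which could not have moved, since at their floor they still lie above the gap. Apoa4, an intestinal and hepatic apolipoprotein, had 137 and 48 reads in AKK, against 0 and 2 reads in PBS, a ratio of 81.2 (95% counting interval 22.2 to 676). Apon read 4.07 and 0.753 CPM in AKK, against 0.0562 and 0.0841 CPM in PBS. Saa2, an acute phase protein that rides on HDL, read 7.84 and 0.873 CPM in AKK, against 0.0375 and 0.0841 CPM in PBS. Its count can miss reads that map equally to its near copy Saa1. Apod, a lipocalin outside this hepatic group, went the other way at 0.0708 and 0.0514 CPM in AKK, against 3.13 and 0.610 CPM in PBS. Apod was under the filter's cutoff in both AKK libraries and could enter only by being higher in PBS. EdgeR adjusted p-values of these 4 genes were 0.182 (Apoa4), 0.186 (Apon), 0.187 (Saa2) and 0.186 (Apod). Clu, the chaperone apolipoprotein J, chosen after its values were seen, read 1694 and 5637 CPM in AKK, against 3769 and 4411 CPM in PBS, and overlapped.

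Genes that act with Mttp and Apob in assembly and secretion had a median log2 fold change of 0.10 over 15 genes passing the filter of 19 listed, against 0.02 over all genes. EdgeR called 0, with 3 at an unadjusted p under 0.05 as higher and 0 as lower, where 6.7% and 8.62% of all genes were. Aadac, a hepatic lipase-like enzyme, had 135 and 25 reads in AKK 1 and AKK 2, against 3 and 0 reads in PBS. This was a ratio of 46.8 (95% counting interval 15.7 to 229). Aadac was under the filter's cutoff in both PBS libraries and could enter only by being higher in AKK. Tm6sf2, which helps lipidate the particle, read 2.55 and 1.37 CPM in AKK, against 0.675 and 0.526 CPM in PBS (log2 fold change 1.70, edgeR adjusted p = 0.262). Cideb, which acts in the same step, read 6.30 and 3.94 CPM in AKK, against 1.18 and 2.27 CPM in PBS (1.57, edgeR adjusted p = 0.269). Sort1, a sorting receptor for apolipoprotein B, read 4.78 and 20.2 CPM in AKK, against 53.3 and 23.7 CPM in PBS (-1.62, edgeR adjusted p = 0.347). P4hb, the partner subunit of Mttp named here by its role after its values were seen, read 925 and 967 CPM in AKK, against 787 and 973 CPM in PBS.

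HDL formation and remodelling genes had a median of -0.17 over 10 genes (0.34 without PBS 1), and edgeR called 0. At an unadjusted p under 0.05, 1 was higher and 1 lower, where 6.7% and 8.62% of all genes were. Pon1, an HDL-bound esterase of liver, had 143 and 16 reads in AKK, against 2 and 0 in PBS. This was a ratio of 69.8 (95% counting interval 19.01 to 581). Pon1 was under the filter's cutoff in both PBS libraries and could enter only by being higher in AKK. Endothelial lipase (Lipg) read 0.265 and 0.120 CPM in AKK, against 1.14 and 0.610 CPM in PBS. The cholesterol exporter Abcg1 read 2.34 and 3.60 CPM in AKK, against 7.03 and 4.63 CPM in PBS, and Pon3 1.77 and 2.45 against 3.45 and 3.60 CPM. All 3 lay lower in both AKK libraries, where 24.7% of all genes did, with edgeR adjusted p-values of 0.253, 0.352 and 0.429.

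The 6 lipolysis genes had a median of 0.51, and edgeR called 0. At an unadjusted p under 0.05, 2 were higher and 1 lower, where 6.7% and 8.62% of all genes were. Lipoprotein lipase (Lpl) read 62.6 and 29.9 CPM in AKK, against 14.8 and 16.5 CPM in PBS (log2 fold change 1.56, SE 0.37, edgeR adjusted p = 0.200, DESeq2 adjusted p = 0.00589). Its capillary anchor Gpihbp1 read 2.42 and 2.00 CPM in AKK, against 5.29 and 6.29 CPM in PBS (-1.39, SE 0.38, edgeR adjusted p = 0.231, DESeq2 adjusted p = 0.00982). Lipase and anchor lay apart between the groups in opposite directions. Lmf1, a maturation factor of lipases, read 17.7 and 15.0 CPM in AKK, against 10.3 and 13.7 CPM in PBS. Leaving out AKK 1 put the median of the list at -0.018, PBS 1 at 0.09, AKK 2 at 0.85 and PBS 2 at 1.13.

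Receptors and uptake genes had a median of -0.48 over 15 genes, and edgeR called 0. Positive fold changes were found in 3 of the 15, where 51.8% of all genes had one. At an unadjusted p under 0.05, 4 were lower, where 8.62% of all genes were, and 1 was higher, where 6.7% were. Lrp2, a large endocytic receptor of epithelia, had 0 and 2 reads in AKK, against 69 and 25 reads in PBS, a ratio of 0.0187 (95% counting interval 0.00223 to 0.0694). Lrp2 was under the filter's cutoff in both AKK libraries and could enter only by being higher in PBS. The fatty acid and lipoprotein receptor Cd36 read 1.47 and 0.617 CPM in AKK, against 4.54 and 3.22 CPM in PBS (DESeq2 adjusted p = 0.0286). Mylip, a ligase that degrades the LDL receptor, read 0.885 and 1.08 CPM in AKK, against 3.06 and 2.21 CPM in PBS. Olr1, a receptor of oxidised LDL, went the other way at 6.32 and 12.5 CPM in AKK, against 4.35 and 2.90 CPM in PBS. EdgeR adjusted p-values were 0.249 for Cd36, 0.267 for Mylip and 0.277 for Olr1.

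Transcription regulators of apolipoprotein genes had a median of 0.20 over 16 genes passing the filter of 19 listed, and edgeR called 0. At an unadjusted p under 0.05, 4 were higher, where 6.7% of all genes were, and 0 were lower, where 8.62% were. Foxa3, a forkhead factor of liver, had 62 and 32 reads in AKK, against 2 and 1 in PBS, a ratio of 27.5 (95% counting interval 9.13 to 136). Nr5a2, a nuclear receptor of liver and gut, read 1.31 and 0.908 CPM in AKK, against 0.281 and 0.0841 CPM in PBS (log2 fold change 2.57, edgeR adjusted p = 0.235). Creb3l3, a liver and gut factor known to activate apolipoprotein genes, read 3.43 and 0.942 CPM in AKK, against 0.225 and 0.610 CPM in PBS (2.39, edgeR adjusted p = 0.288). Nr1h3, the oxysterol receptor LXR alpha, read 17.6 and 11.7 CPM in AKK, against 8.98 and 5.99 CPM in PBS (0.97, edgeR adjusted p = 0.297). These 4, named for their small p, were higher in 2 of 2 AKK libraries, as were 6 of the 16 in all and 26.7% of all genes. Foxa3, at 0.0375 and 0.0210 CPM in PBS, was under the filter's cutoff there and could enter only by being higher in AKK. Hnf4a, given above beside Apob, overlapped.

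**Figure D5:**
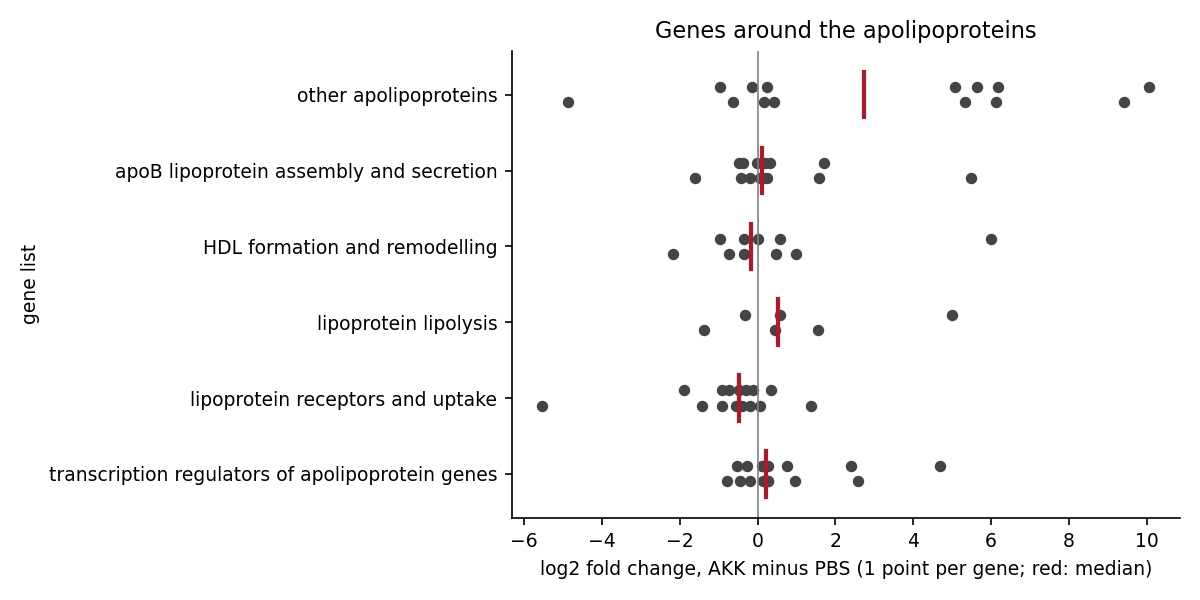
Log2 fold change, AKK minus PBS, of each gene that passed the filter in 6 lists of lipoprotein genes, with 1 point per gene and the list's median as a red line. The other apolipoproteins split into 7 genes at 5.07 or more and the rest at 0.43 or less, while the medians of the other lists lie between -0.48 and 0.51.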

How the data were processed

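RNA of mouse liver tumours was sequenced as paired reads of 151 bp, per the labels. The authors deposited raw read counts per gene, 1 table per library, laid out as STAR writes them. Per the submitters' processing notes, STAR 2.5.2 and RSEM 1.2.31 were used. Build, annotation and library kit: not given in the sources used here. STAR's gene tables take only uniquely mapped reads, so near-identical genes (Saa1 and Saa2, the Mup family) can lose reads. Own-strand counts were used, which held 95.4 to 96.2% of reads assigned by strand. The 4 summary rows, which name no gene, held 27.6 to 31.4% of reads and were left out. Symbols were matched for 48058 of 48526 identifiers.

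AKK and PBS were compared with the two-sided quasi-likelihood test of edgeR 4.0.16 (legacy glmQLFit, R 4.3.3) on all genes passing filterByExpr. Scaling was by TMM, the model held group alone, and p-values were adjusted over 17479 genes by Benjamini-Hochberg with a threshold of 0.05. Log2 fold changes are AKK minus PBS with a prior count of 0.125, and their SE was derived from the F statistic. Alternatives were other size factors, other filters, unstranded counts, DESeq2 1.42.0, limma-voom (limma 3.58.1), the edgeR 4 form, the replicate number as a block, TMM without the hepatocyte list and the 10 genes, and leaving out each library with the same genes tested. A group left with 1 library was taken to vary as the remaining group does. The edgeR script was tested on simulated data. Ratios of reads have exact conditional binomial intervals at 95%, which cover counting error only, since reads without molecular identifiers are not independent molecules.

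The 10 genes, the 15 gene lists (6 of lipoprotein genes, 9 of cell markers) and the 5 motifs were chosen with earlier results of these data known. Lists are described by counts and medians, with no test. Named were the 10 genes, up to 4 genes per lipoprotein list with the smallest p, and markers beside a result. Also named were the 3 genes of nearest profile to each of those 10, outside them and the marker lists (mostly the nearest is printed). Some genes that this rule names are not reported here. Any other gene is said to be chosen after its values were seen. Promoter windows are from RefSeq.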

Additional observations from a re-analysis of the deposited data

Results flagged for a closer look

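Reads on the strand opposite to Apoa1 were not used in any comparison. They stood at 1.04 and 0.154 CPM in AKK 1 and AKK 2 (59 and 9 reads), against 0 and 0.0210 CPM in PBS 1 and PBS 2 (0 and 1 reads), above the PBS level in both AKK libraries. They amounted to 1.02 and 1.03% of the own-strand reads of Apoa1 in AKK. The same share for Apoe was 1.33 and 0.846% in AKK, against 0.768 and 0.875% in PBS.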

How the results depend on the processing

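Apoa1, Apoa2, Apoa5, Apoc1, Apoc3, Apoh and Apom kept a positive log2 fold change under every alternative run, except that the filter of 1 CPM left Apom untested. PBS read counts of 0 to 33 limit the precision of these 7. Of the 10 genes edgeR called 0, against 6 with no filter on low counts, 6 with DESeq2 and 5 with the replicate block (all but Apoa2 of the 6). The count over all genes was 1, against 3 with upper-quartile scaling, 631 with no filter, 878 with DESeq2, 0 with limma-voom, 4 with the edgeR 4 form and 209 with the replicate block. Samples of the same number share only that number (r = -0.015 between deviations of AKK 1 and PBS 1 over 17479 genes). Leaving out a library gave 0 to 820 genes (0 without AKK 1, 0 without AKK 2, 559 without PBS 1 and 820 without PBS 2) and 0 to 6 of the 10. The log2 fold change of Apob ranged from -1.33 to 0.37 with a library left out, turning to 0.18 without AKK 1 and 0.37 without PBS 2, and that of Apoe from -0.70 to 0.30, turning without PBS 1. List medians ranged from -0.31 to 0.34 for HDL genes and from -0.018 to 1.13 for lipolysis genes with a library left out, and the other apolipoproteins had a median of 0.18 with the filter of 1 CPM, which tests fewer genes. The difference, AKK minus PBS, of the log2 ratio to the hepatocyte list (1.85 for Apoa1, -0.35 for Apoa2, -0.68 for Apoa5, 0.79 for Apoc1, -0.23 for Apoc3 and -0.63 for Apoh) became, with Alb as denominator, -0.40 (Apoa1), -2.61 (Apoa2), -2.94 (Apoa5), -6.30 (Apob), -1.47 (Apoc1), -2.49 (Apoc3), -6.06 (Apoe), -2.89 (Apoh), -5.22 (Apom) and -6.01 (Mttp). With a pseudocount of 0.05 CPM it was 1.03 (Apoa1), -1.39 (Apoa2), 0.25 (Apoa5), 0.71 (Apoc3), -5.70 (Apoe), -0.94 (Apoh), -4.15 (Apom) and -5.67 (Mttp). Apoa1 and Apoc1 thus turned sign with Alb, and Apoa5 and Apoc3 with the smaller pseudocount. The cause of these shifts was not tested.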
